A study of Mus musculus with 8 samples.

Results

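The mitochondrial ribosomal protein genes are the genes whose symbols begin with Mrpl or Mrps followed by a digit. In the 4 deposited lists of ERRα ChIP-seq peaks, 67 of the 19188 genes named in any list carried such a symbol. A gene was counted as bound when a peak assigned to it by the authors' annotation lay 20 kb or less from its transcription start site (TSS). RefSeq holds 78 protein-coding genes with these names, and the other 11 were named in no list, among them Mrpl41, Mrpl47, Mrps14 and Mrps21.

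The libraries came from male C57BL/6N mice of 2 to 3 months. WT mice were compared with ERRα 3SA mice, which carry a germline phospho-mutant ERRα in which 3 serines of the amino-terminal domain are replaced, so the mutant receptor was present in every tissue. Chromatin was prepared from liver pooled from 2 mice per genotype, or from skeletal muscle (gastrocnemius and soleus) pooled from 5 mice per genotype, at zeitgeber time 9. Each genotype and tissue gave 1 ChIP library and 1 peak list, with 25427 peaks in WT muscle, 50647 in 3SA muscle, 21813 in WT liver and 29040 in 3SA liver. A single library stands behind every list, so no spread between animals can be given and no test was run. Intervals in brackets are 95% Wilson intervals. They cover counting error only and treat genes or peaks as independent. Sequencing depth is unknown for all 4 lists, and differences in depth or in pull-down efficiency cannot be told apart from differences between genotypes or tissues. Of 6 muscle genes chosen to check the tissue (Myh4, Ckm, Acta1, Mb, Myh7 and Tnnt3), 2 had a peak of score 100 or more in WT muscle and 3 in 3SA muscle, against 0 in WT liver and 1 in 3SA liver. The liver set (Alb, Apoa1, Ttr, Serpina1a, Cps1 and Tat) had no such peak in either muscle list or in WT liver and 1 in 3SA liver, so it did not set the WT liver list apart from muscle. At any score within 20 kb, 4 muscle genes were bound in WT muscle, 6 in 3SA muscle, 4 in WT liver and 3 in 3SA liver. By that count the muscle set did not separate the WT tissues either. For the liver set the counts were 1, 2, 2 and 4 in the same order.

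Mitochondria have their own ribosome, which translates the few messenger RNAs of the mitochondrial genome, all of which encode subunits of the oxidative phosphorylation complexes. Its proteins are encoded in the nucleus and imported. Some descend from bacterial ribosomal proteins, and others were added in the mitochondrial lineage. ERRα, encoded by Esrra, is an orphan nuclear receptor that acts with the coactivator PGC-1α on genes of energy metabolism. It binds as a monomer or dimer to the ERR response element (ERRE), written here as TCAAGGTCA, an extended half-site with the core AAGGTCA.

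Sequences are shown for the start-proximal sites with the short core and for the full ERREs, because most of them lay at different places. Some start-proximal peaks held the short core without the full ERRE. The following stretches are from the plus or minus strand of GRCm38 (mm10) as stated after them, 5′ to 3′, with AAGGTCA in capitals.
Mrps35, first intron: aaaaacacaggAAGGTCAcggagcgcacg
Mrpl42, first intron: taaggagtcgcAAGGTCAacttggtgcag
Mrpl12, just past the start: ccgcaagcgggAAGGTCAcacgcggctct
Mrps16, past the start: aagggtaagacAAGGTCAtggcttagtaa
Mrps6, past the start: cggtctgagggAAGGTCActtacccgccg
The Mrps35 stretch is the minus strand of chr6:147042950-147042978, and the Mrpl42 stretch is the plus strand of chr10:95501683-95501711. The Mrpl12 stretch is the minus strand of chr11:120484659-120484687, the Mrps16 stretch the minus strand of chr14:20393153-20393181, and the Mrps6 stretch the minus strand of chr16:92058475-92058503.

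Full ERREs were found near 2 starts and at more distant places. In the next stretches the capitals mark TCAAGGTCA.
Mrps23, first intron: ggcactaaatTCAAGGTCAtccttggcca
Mrpl4, upstream: gactctgaacTCAAGGTCAtccttggcta
Mrps35, intron 4: ggccatgaatTCAAGGTCAccctgggcta
Mrpl43, past the start in an intron of another transcript: acctctgggtTCAAGGTCAgcctggtcta
Mrpl9, intergenic: agaatgaagtTCAAGGTCAcccttgccta
Mrpl49, intron 3: actttccgaaTCAAGGTCAtctgtcggtt
These are the plus strand of chr11:88204938-88204966 for Mrps23 and of chr9:21001829-21001857 for Mrpl4, and the minus strand of chr6:147054656-147054684 for Mrps35. They are the minus strand of chr19:45000169-45000197 for Mrpl43 and of chr3:94452884-94452912 for Mrpl9, and the plus strand of chr19:6055092-6055120 for Mrpl49.

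The study asked whether the 3SA mutation changes where ERRα sits on chromatin. Of the 67 members, 32 were bound in WT muscle (47.8%, 36.3 to 59.5), where 45.1% of all genes named in any list were. In 3SA muscle 41 members were bound (61.2%, 49.2 to 72.0), beside 63.5% of all genes. In WT liver 30 were bound (44.8%, 33.5 to 56.6) beside 39.2%, and in 3SA liver 43 (64.2%, 52.2 to 74.6) beside 49.2%. The 3SA list therefore named 1.28 times as many members as the WT list in muscle, where the ratio over all genes was 1.41, and 1.43 times as many in liver, where it was 1.26. When the 3SA muscle list was shortened by score to 25427 peaks, it named 32 members, the number in WT muscle. The 3SA liver list shortened to 21813 peaks named 35, against 30 in WT liver. Both cuts fell among tied peaks, 9967 of score 36 in muscle and 3714 of score 37 in liver. Tied peaks were kept in order of chromosome and start, so both counts depend on that order. Neither cut was counted over all genes, so whether members differ from other genes at equal list length was not tested.

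Peaks near the starts were counted next. A peak 1 kb or less from the start was found for 18 members in WT muscle (26.9%) beside 17.1% of all genes, and for 20 in 3SA muscle (29.9%) beside 20.4%. In liver it was found for 19 members with WT receptor (28.4%) beside 11.6% of all genes, and for 27 with 3SA receptor (40.3%) beside 17.9%. The narrower annotation promoter-TSS is given by the authors' annotation to peaks around the start of a transcript. By it 7 members were counted in WT muscle (7.94% of all genes), 7 in 3SA muscle (9.84%), 7 in WT liver (6.37%) and 9 in 3SA liver (9.87%). The labelled transcript was not always the member's own. For example, the promoter-TSS label of the Mrps27 peak 360 bp past its start in 3SA liver named a different transcript from its intronic peaks. Most start-proximal member peaks carried an annotation other than promoter-TSS and lay past the start. Between 100 and 500 bp downstream lay 12 of 19 start-proximal member peaks in WT muscle (63.2%, 41.0 to 80.9), 14 of 20 in 3SA muscle (70.0%, 48.1 to 85.5), 12 of 20 in WT liver (60.0%, 38.7 to 78.1) and 18 of 28 in 3SA liver (64.3%, 45.8 to 79.3). Over all genes the same stretch held 42.0%, 37.9%, 32.9% and 32.6% of the start-proximal peaks in these lists.

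Few members carried strong peaks. The score is the authors' peak caller's whole number of at least 30, read here as 10 times the negative log10 of the FDR, and is used only to rank peaks within a list. A score of 100 or more was reached by 6 members in WT muscle (3.74% of all genes did), 8 in 3SA muscle (7.17%), 11 in WT liver (10.4%) and 14 in 3SA liver (15.5%), which is 8.96%, 11.9%, 16.4% and 20.9% of the members. A peak's position from the top of its list is its rank divided by the number of peaks, with tied peaks given the best rank. The best peaks of the bound members had a median position in the top 16.0% of WT muscle, where the median over all bound genes was 39.1%. The medians were 23.7% for members and for all genes in 3SA muscle, 31.4% against 37.6% in WT liver, and 38.6% against 34.0% in 3SA liver. The top 5% of the list held the best peak of 8 of 32 bound members in WT muscle (25%, against 9.06% of all bound genes), 8 of 41 in 3SA muscle (19.5% against 11.3%), 4 of 30 in WT liver (13.3% against 8.86%) and 3 of 43 in 3SA liver (6.98% against 9.13%). The members bound in 3SA liver were thus the most numerous, and the share of them near the top was the lowest of the 4 lists. These counts follow the named gene. The Mrps18b peak in the top 5% of both WT lists had a counterpart in both 3SA lists. The counterparts stood at 1.63% in muscle and 3.90% in liver but were named for Ppp1r10.

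**Figure D1:**
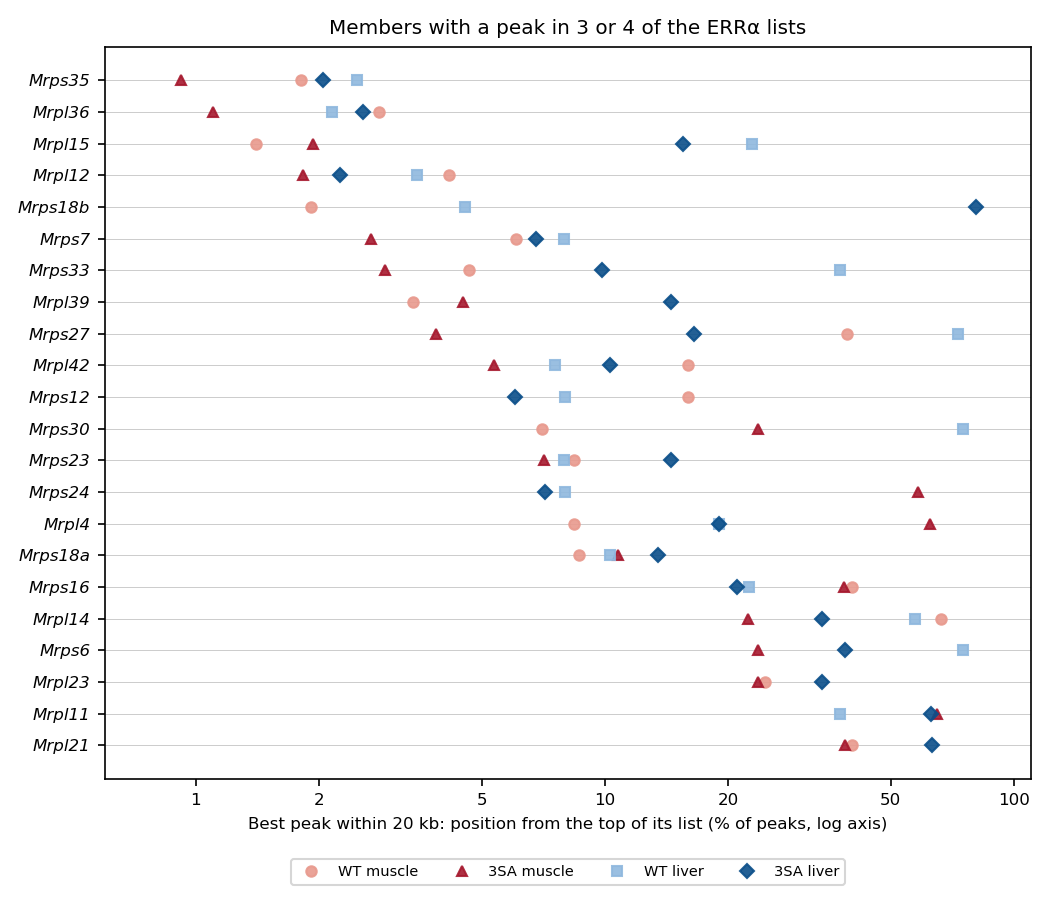
Position of the best peak within 20 kb, in % of peaks from the top of the list (log axis), for the 22 members bound in 3 or 4 lists, with 1 point per list and no error since each list is 1 library. Mrps35, Mrpl36 and Mrpl12 lie between 0.918% and 4.16% in every list, whereas Mrpl15 is at 1.40% and 1.93% in muscle and at 22.8% and 15.5% in liver.

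Mrps35, which encodes a small-subunit protein of the mitochondrial lineage, had a strong peak in every list. It ranked 460 in WT muscle (top 1.81%), 465 in 3SA muscle (top 0.918%), 541 in WT liver (top 2.48%) and 596 in 3SA liver (top 2.05%). The peak lay in the first intron, with centres 230, 155, 204 and 174 bp past the start in these lists, and in WT muscle it covered chr6:147042694-147043307. The AAGGTCA shown above lay within 39 bp of the centre in all 4 lists.

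Mrpl36, a large-subunit protein of bacterial type, ranked 714 in WT muscle, 557 in 3SA muscle, 470 in WT liver and 743 in 3SA liver, at 443, 381, 399 and 315 bp past the start. Its central 300 bp held no AAGGTCA in any list. Mrpl12, the large-subunit counterpart of the bacterial stalk protein L7/L12, ranked 1058, 928, 757 and 655 in the same order. Both genes had their best peak in the first 4.16% of every list.

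Other members stood higher in some lists than in others. Mrpl15, a large-subunit protein of bacterial type, ranked 357 in WT muscle and 979 in 3SA muscle, and 4981 and 4514 in the liver lists, with all 4 centres between 19 and 143 bp past the start. Mrpl39, a large-subunit protein of the mitochondrial lineage, ranked 862 in WT muscle and 2285 in 3SA muscle at its start. In WT liver it had no peak within 20 kb, and in 3SA liver its start peak ranked 15499. Mrpl51 had a peak past its start, labelled promoter-TSS, of rank 1186 in WT muscle and 7934 in 3SA liver, and none in the other lists. Mrps33, a small-subunit protein, ranked 1186, 1467 and 2860 in WT muscle, 3SA muscle and 3SA liver and 8204 in WT liver, with a peak 149 to 178 bp past the start in every list. In liver it had an additional peak in the first intron, of rank 8204 at 3639 bp in WT and of rank 3231 at 3495 bp in 3SA. Mrps30, in spite of its name a large-subunit protein, ranked 1781 in WT muscle, 11987 in 3SA muscle and 16370 in WT liver, from 241 to 347 bp past the start. Mrpl42 ranked 4057 in WT muscle, 2708 in 3SA muscle, 1644 in WT liver and 2982 in 3SA liver, and its core site lay within 83 bp of the centre in every list.

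Several strong peaks lay well inside or beyond the gene. Mrps7 ranked 1543, 1356, 1735 and 1972 in WT muscle, 3SA muscle, WT liver and 3SA liver with a peak annotated to a transcript end, from 3709 to 4100 bp past its start. Mrps12, a small-subunit protein of bacterial type, ranked 4057 in WT muscle, 1746 in WT liver and 1754 in 3SA liver at 9262 to 9394 bp past its start, inside a different transcript, and had no peak within 20 kb in 3SA muscle. Mrps24 ranked 1746 in WT liver and 2070 in 3SA liver with a peak about 5.4 kb past its start, and its only 3SA muscle peak ranked 29571. An intronic peak of Mrps27, about 8.7 kb past the start, ranked 9931 in WT muscle and 1955 in 3SA muscle, and 15928 in WT liver and 4792 in 3SA liver. It stood higher in the 3SA list by rank number in both tissues. Mrps18a, in spite of its name a large-subunit protein, was bound in all 4 lists, between 6563 and 13996 bp past the start, with a best rank of 2194 in WT muscle, 5454 in 3SA muscle, 2244 in WT liver and 3915 in 3SA liver. The liver peak and the muscle peak were different places, and in muscle the WT and 3SA centres were 430 bp apart.

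**Figure D2:**
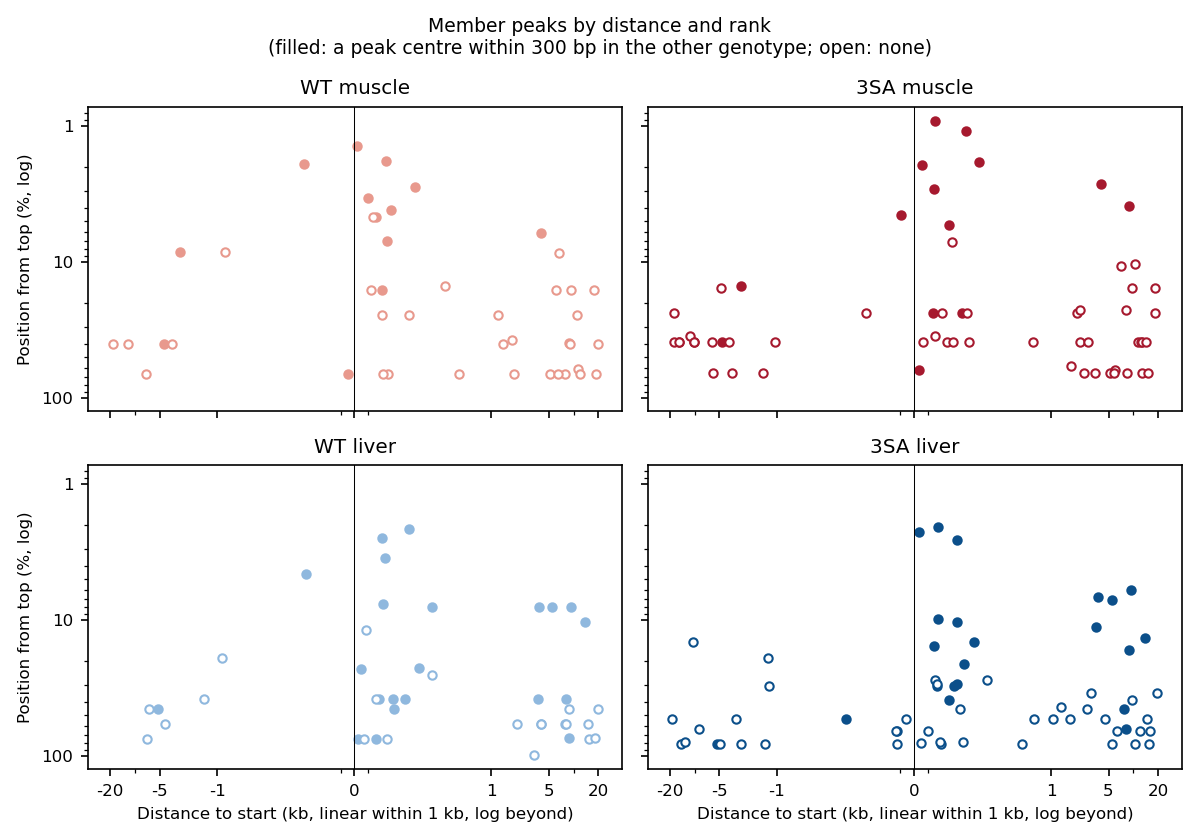
Member peaks within 20 kb in each list, by distance from the start (kb, linear within 1 kb and log beyond) and by position from the top of the list (% of peaks, log axis, strongest at the top). Filled points have a peak centre within 300 bp in the other genotype of the same tissue and open points have none; most points above 5% are filled and lie just past the start.

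Sharing between genotypes was most frequent near the starts. A peak was shared when a peak centre of the other genotype of the same tissue lay within 300 bp. In WT muscle 10 of 19 member peaks within 1 kb of a start were shared (52.6%, 31.7 to 72.7), 3 of 8 at 1 to 5 kb (37.5%) and 1 of 17 at 5 to 20 kb (5.88%, 1.05 to 27.0). The corresponding shares over all genes were 29.6%, 22.4% and 20.7%. In 3SA muscle 10 of 20 (50%), 3 of 15 (20%) and 1 of 26 (3.85%, 0.682 to 18.9) were shared, beside 24.5%, 11.8% and 9.89% over all genes. In WT liver 14 of 20 near peaks (70.0%, 48.1 to 85.5), 2 of 8 at 1 to 5 kb (25%) and 7 of 15 at 5 to 20 kb (46.7%, 24.8 to 69.9) were shared, beside 58.8%, 47.9% and 46.0% over all genes. In 3SA liver 13 of 28 (46.4%), 2 of 14 (14.3%) and 7 of 21 (33.3%) were shared, beside 37.99%, 33.6% and 32.8%. Near the starts the member share stood above that of all genes in every list, while beyond 5 kb it was below it in both muscle lists and close to it in both liver lists. The 2 lists of a tissue count largely the same pairs, so they are not separate observations. Near the starts in liver, and beyond 5 kb in all 4 lists, the share over all genes lay inside the interval of the members. Over all genes, too, the share beyond 5 kb was lower in the muscle lists than in the liver lists. Scores differed as well. In WT muscle 42.1% of near member peaks scored under 50, beside 75.3% over all genes, and 94.1% beside 84.0% at 5 to 20 kb. In all 4 lists this member share was the lower near the starts and the higher beyond 5 kb. Sharing was not compared at equal score, so score and distance cannot be told apart in these contrasts with all genes.

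**Figure D3:**
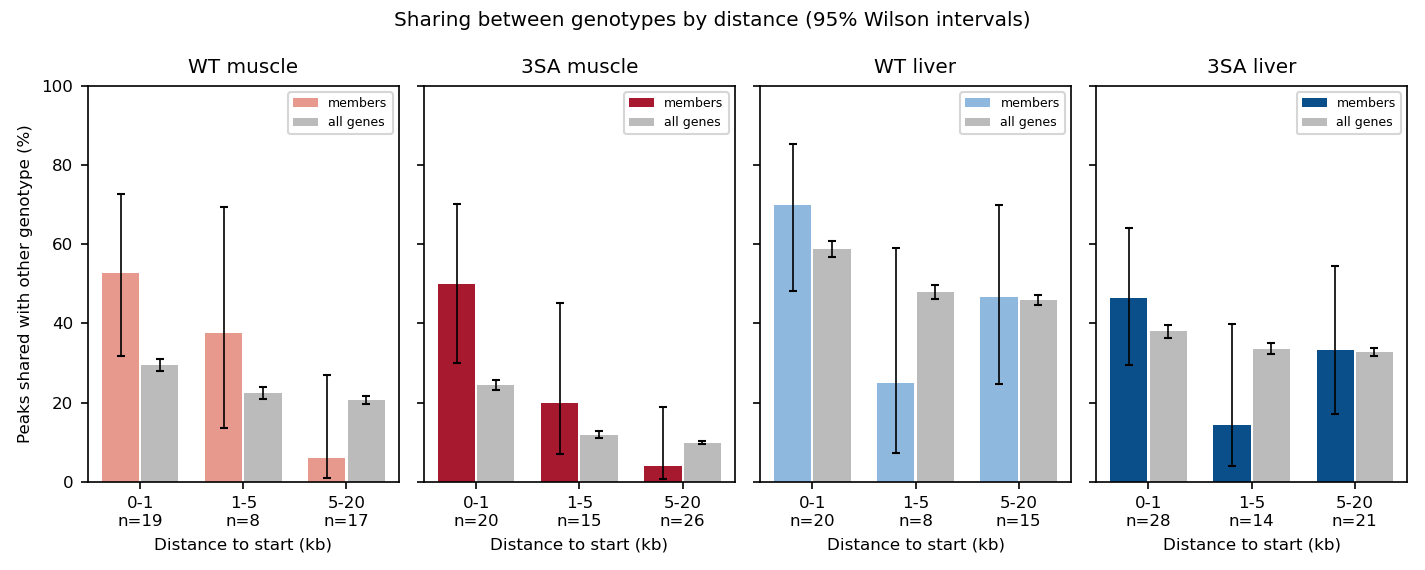
Share of peaks (%) that have a peak centre within 300 bp in the other genotype of the same tissue, for members (coloured, n is the number of member peaks) and all genes (grey), by distance to the start; error bars are 95% Wilson intervals (counting error alone). In both muscle lists, which count largely the same pairs, the member bars fall from 52.6% and 50% within 1 kb to 5.88% and 3.85% at 5 to 20 kb.

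Of the members bound in both genotypes, 13 of 23 in muscle had a shared peak (56.5%, 36.8 to 74.4), beside 40.1% of all genes bound in both. In liver it was 20 of 23 (87.0%, 67.9 to 95.5), beside 75.7%. With start-proximal peaks alone, 9 of 10 members in muscle (90%) and 12 of 13 in liver (92.3%) shared the peak, beside 72.3% and 85.9% of all genes. In muscle 9 members were bound only in WT and 18 only in 3SA, and in liver 7 only in WT and 20 only in 3SA. Over all genes the counts leaned the same way, with 2264 only in WT and 5786 only in 3SA in muscle, and 1889 and 3811 in liver. Members bound in 3SA and not in WT in both tissues were Mrpl9, Mrpl19, Mrpl38, Mrpl43, Mrpl58, Mrps2 and Mrps28. Their 3SA peaks were weak, with best ranks from 7851 to 32824 in muscle and from 11212 to 23394 in liver. Mrpl58 encodes a peptidyl-tRNA hydrolase that became part of the large subunit, and its 3SA peaks lay 152 bp past the start in muscle and 123 bp before it in liver. Mrps2 had peaks 866 and 878 bp past its start in the 3SA lists of muscle and liver. Mrpl3 and Mrpl52 showed the reverse, with peaks in both WT lists and none in either 3SA list. The share of all genes that met either condition in both tissues was not counted. The 3SA list was the longer in both tissues, and whether members met these conditions more often than other genes was not tested.

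In shared pairs, the 3SA peak stood nearer the top of its list, as a percent, in 10 of 14 member pairs in muscle (71.4%, 45.4 to 88.3) and in 17 of 23 in liver (73.9%, 53.5 to 87.5). Over all genes this was so in 71.4% of 3048 pairs and 64.5% of 5513 pairs. By the rank number, which does not shrink when the list grows, the 3SA peak stood higher in 5 of 14 member pairs in muscle (35.7%, 16.3 to 61.2). In liver it did so in 7 of 23 (30.4%, 15.6 to 50.9). Over all genes this was so in 37.6% of pairs in muscle and 46.2% in liver. The direction therefore depended on which measure was used, since the 3SA lists are longer.

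Across tissues, WT muscle and WT liver bound 18 members in common, of which 14 shared a peak (77.8%, 54.8 to 91.0), beside 41.1% of all genes bound in both. The 3SA lists bound 26 in common, of which 15 shared a peak (57.7%, 38.9 to 74.5), beside 45.4%. Bound in all 4 lists were 13 members, 19.4% beside 16.0% of all genes (Mrpl4, Mrpl12, Mrpl14, Mrpl15, Mrpl36, Mrpl42, Mrps7, Mrps16, Mrps18a, Mrps23, Mrps27, Mrps33 and Mrps35). A peak within 1 kb in all 4 lists was found for 7 (Mrpl12, Mrpl15, Mrpl36, Mrpl42, Mrps23, Mrps33 and Mrps35), 10.4% of the members beside 3.65% of all genes. Mrpl30 was the only member with promoter-TSS peaks in both lists of 1 tissue and no peak within 20 kb in the other. It had them in muscle, 47 bp before the start in WT and 36 bp past it in 3SA, at ranks 16894 and 31556, in the lower part of their lists. No member had a promoter-TSS peak in all 4 lists. Mrpl35 and Mrpl37 were named in a list but had no peak within 20 kb under their own name, although a WT muscle peak of rank 4057 named for Cyb5rl was centred at -430 bp from the Mrpl37 start.

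By symbol, 12 of 24 Mrps genes were bound in WT muscle, 14 in 3SA muscle, 15 in WT liver and 20 in 3SA liver. Of 43 Mrpl genes 20, 27, 15 and 23 were bound in these lists. The shares over all genes were 45.1%, 63.5%, 39.2% and 49.2%. The symbol is not the subunit, since the Mrps genes include Mrps18a and Mrps30 of the large subunit. They also include Mrps36, which is not a stable ribosome subunit. The 9 small-subunit members of the mitochondrial lineage had the best median positions in muscle, with the best peaks of 6 bound genes at a median of 6.54% in WT and of 5 bound genes at 3.86% in 3SA. The large-subunit members of bacterial type, 25 genes, had 14 bound in WT muscle at a median of 32.4% and 18 in 3SA muscle at 23.7%. Of the small-subunit members of bacterial type, 12 genes, 0 had a start-proximal peak under their own name in WT muscle. In 3SA muscle 3 had one, in WT liver 2 and in 3SA liver 7. These counts depend on the named gene. A WT muscle peak of rank 10219, centred at -149 bp from the Mrps6 start, was named for Slc5a3. In both liver lists a peak near the Mrps7 start was named for Gga3.

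Members with the full ERRE in a peak were few. Their share was above that of all genes in WT muscle and 3SA liver and below it in the other lists. In every list the share of all genes lay inside the interval of the members. TCAAGGTCA on either strand lay in the central 300 bp of a peak within 20 kb for 3 members in WT muscle (2.88% of all genes), 1 in 3SA muscle (5.57%), 5 in WT liver (8.17%) and 10 in 3SA liver (11.3%). In the same order this is 4.48% (1.53 to 12.4), 1.49% (0.264 to 7.98), 7.46% (3.23 to 16.3) and 14.9% (8.31 to 25.3) of the members. There were 14 distinct sites at 14 members (Mrpl4, Mrpl9, Mrpl11, Mrpl12, Mrpl21, Mrpl38, Mrpl43, Mrpl44, Mrpl46, Mrpl49, Mrps16, Mrps23, Mrps31 and Mrps35), and 2 of them lay within 1 kb of a start. Over all genes, too, most peaks with the site lay farther out, with 85 of 578 within 1 kb in WT muscle, 128 of 1142 in 3SA muscle, 222 of 1697 in WT liver and 267 of 2392 in 3SA liver. The Mrps23 site lay 564 bp past the start of the RefSeq transcript and 1 bp from the peak centre in WT liver, where the peak ranked 1735; the gene encodes a small-subunit protein of the mitochondrial lineage. The Mrpl4 site lay at -894 bp, before the start, in peaks of rank 2140 in WT muscle and 4147 in WT liver, and was inside the interval but outside the central 300 bp in 3SA liver. In 3SA muscle no peak named for Mrpl4 covered it. The nearest of the others lay at -1136 bp, at Mrpl12, and the most distant at -14465 bp, at Mrpl38, with minus for positions before the start. In 7 of the 14 genes a peak with the site was centred in a SINE, a short interspersed repeat, by the authors' detailed annotation, among them Mrps23, Mrpl9, Mrpl43 and intron 4 of Mrps35. In 2 more it was in an LTR, in 1 in a tRNA repeat, and in 4 (Mrpl4, Mrpl12, Mrpl49 and Mrps16) in none. In 3SA liver 6 of 10 member peaks with the site were centred in a SINE (60.0%, 31.3 to 83.2) and 3 of 53 member peaks without it (5.66%, 1.94 to 15.4). Over all genes the shares in 3SA liver were 34.3% of peaks with the site and 8.43% of peaks without. The other lists held few such member peaks, with 1 of 3 in a SINE in WT muscle, 0 of 1 in 3SA muscle and 2 of 5 in WT liver (40%), beside 26.1%, 30.6% and 35.9% over all genes.

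The strong start-proximal peaks mostly lacked the full ERRE. Among member peaks of score 100 or more within 1 kb, TCAAGGTCA was in the central 300 bp of 0 of 6 in WT muscle, 0 of 6 in 3SA muscle, 1 of 7 in WT liver and 1 of 7 in 3SA liver, and the exception in both liver lists was Mrps23. Over all genes the site was in 10.5%, 9.83%, 17.2% and 14.6% of such peaks. The core AAGGTCA, which the full ERRE contains, was searched on both strands after the sequences had been seen. It lay in 1 of 6 strong member peaks in each muscle list (16.7%), beside 34.8% in WT and 39.0% in 3SA over all genes, and in 3 of 7 in WT liver and 4 of 7 in 3SA liver (42.9% and 57.1%), beside 50% and 45.7%. Among start-proximal peaks of any score it lay in the central 300 bp of 5 of 19 start-proximal member peaks in WT muscle (26.3%, 11.8 to 48.8), 4 of 20 in 3SA muscle (20%), 7 of 20 in WT liver (35.0%) and 8 of 28 in 3SA liver (28.6%). All start-proximal peaks of these lists held it in 11.2%, 14.6%, 31.2% and 25.7%. The 11 distinct core sites lay at 10 members, and those of Mrps35 and Mrpl42 were in the centre of the peak in all 4 lists. The core site of Mrps16 lay 323 bp past the start and was central in 3SA muscle, WT liver and 3SA liver, as was that of Mrps6, 153 bp past the start. A match of letters is a description of the window and does not show a bound site.

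The gene named for a peak was in general the one with the nearest start in the authors' annotation, not always by the RefSeq starts used here. Many members share a promoter region with a gene on the other strand. Another protein-coding gene started on the opposite strand no more than 1 kb upstream, or overlapped the start by less than 200 bp, at 27 of 78 protein-coding Mrp genes (34.6%, 25 to 45.7) and at 9.13% of all protein-coding genes in RefSeq. When any peak centre within 1 kb of a RefSeq start was counted, whatever the named gene, 26 of the 78 genes were hit in WT muscle, 28 in 3SA muscle, 27 in WT liver and 34 in 3SA liver, and 8, 8, 9 and 7 of these were named for another gene alone. In all 4 lists 10 genes were hit. Hits by this rule were not counted over all RefSeq genes, so whether the Mrp genes were hit more often than others was not tested.

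Mrps18b, a small-subunit protein gene, is the clearest case. Its peak upstream of the start ranked 486 in WT muscle and 995 in WT liver and was named Mrps18b. Peaks with centres within 300 bp ranked 824 in 3SA muscle and 1132 in 3SA liver and were named for the divergent gene Ppp1r10, a regulatory subunit of a protein phosphatase, whose start lies 756 bp away. The annotation therefore listed Mrps18b as unbound in 3SA muscle, and bound in 3SA liver only by a separate intronic peak of rank 23394, although a strong peak lay at the same place in all 4 lists. Mrpl47 was named in no list, yet the centre of a strong peak lay at -314 to -276 bp from its start. The peak was named for Ndufb5, a complex I subunit, and had ranks 194, 170, 187 and 158 in WT muscle, 3SA muscle, WT liver and 3SA liver. The starts of these genes are 308 bp apart. Mrps21, also in no list, lay under a peak named for C920021L13Rik that ranked 2166 in 3SA muscle, 6227 in WT liver and 4176 in 3SA liver. In 3SA muscle the centre of this peak lay 89 bp from the RefSeq start of Mrps21 and -97 bp from the named gene by the authors' annotation. Peaks named for Ptcd2 lay at -241 bp from the Mrps27 start in WT liver, with rank 2587, and at -711 bp in 3SA liver, with rank 1466. Which gene of such a pair the receptor acts on cannot be told apart from a peak list.

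Beside other genes of the same pathway, the counts over the members can be set against 3 lists. Of 46 other mitochondrial translation genes named in any list, 23 were bound in WT muscle, 26 in 3SA muscle, 19 in WT liver and 30 in 3SA liver, and 4, 4, 6 and 14 had a peak of score 100 or more. Mpv17l2, a mitoribosome assembly factor, had the strongest peak of this group, at ranks 24, 15, 45 and 33. Ptcd3, a small-subunit protein without an Mrps symbol, ranked 131 in WT muscle and 329 in 3SA muscle and 5512 and 4837 in WT and 3SA liver. Oxa1l, which inserts newly made proteins into the inner membrane, ranked 862, 855, 470 and 826. Of 12 translation factors, 7, 7, 9 and 11 were bound, with a score of 100 or more for 2, 1, 4 and 8. Mpv17l2, Ptcd3 and Oxa1l were named after their values were seen.

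Of 40 complex I (Nduf) genes, 33 were bound in WT muscle (82.5%, 68.1 to 91.3), 34 in 3SA muscle, 31 in WT liver and 34 in 3SA liver, and 12 (30%), 22 (55%), 15 (37.5%) and 23 (57.5%) had a score of 100 or more. Their median best positions were 7.10%, 3.8%, 19.01% and 7.93%, nearer the top of each list than the medians of the members. Of 65 cytosolic ribosomal protein genes, 20, 34, 29 and 37 were bound, and 1, 3, 3 and 6 had a score of 100 or more.

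**Figure D4:**
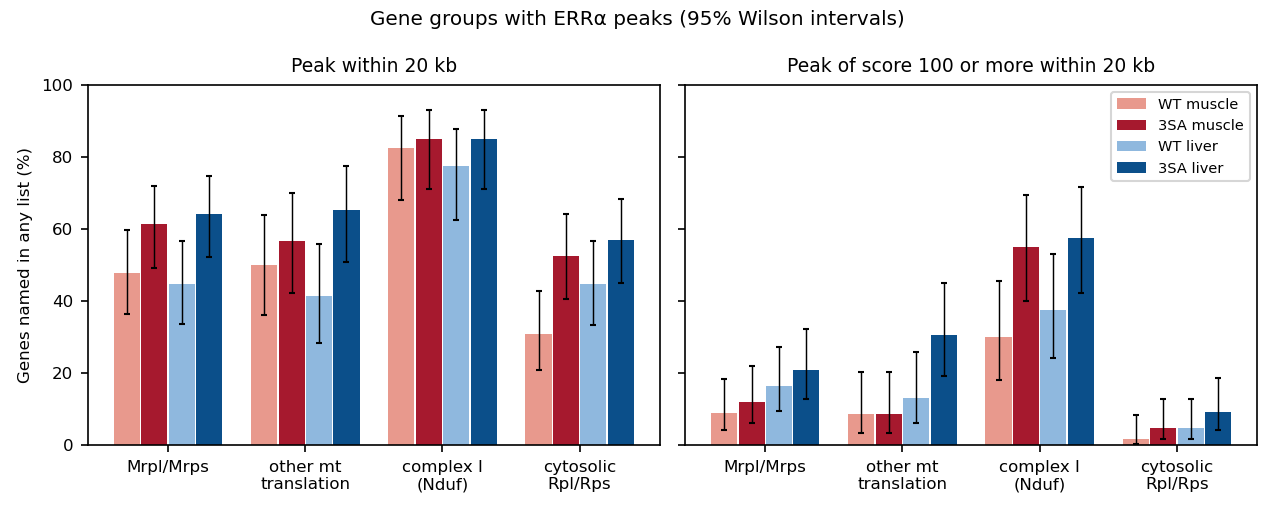
Share (%) of the genes named in any list that had a peak within 20 kb (left) or one of score 100 or more (right), for mitochondrial ribosomal protein genes, other mitochondrial translation genes, complex I genes and cytosolic ribosomal protein genes, with 1 bar per list and 95% Wilson intervals that cover counting error only. For strong peaks the members lie at 8.96% to 20.9%, the complex I genes at 30% to 57.5%, and the cytosolic ribosomal protein genes at 1.54% to 9.23%.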

How the data were processed

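ERRα ChIP-seq peak lists of muscle and liver of WT and 3SA mice were used, 1 per group, and the 4 input samples were not used. Per the labels and the study's methods, the authors used Trimmomatic 0.36 for trimming, BWA 0.7.12 for mapping to mm10 and Picard 2.0.1 for duplicates, called peaks against input with MACS2 2.1.1.20160309 and annotated them with HOMER 4.9.1. The labels give 3 immunoprecipitations pooled per sample and the methods give a larger number. The deposited score is unitless and starts at 30, and the deposited CpG and GC values are fractions of each interval. No depth is given, so precision is limited to counting intervals.

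Intervals were read as 1-based on GRCm38, since the GC fraction of every member peak within and beyond 20 kb matched that genome only so. Sharing was tested by centres within 300 bp, the motif in the central 300 bp, and starts and promoters (250 bases before to 50 after) came from RefSeq. Named genes were the top 5 of each list, those with promoter-TSS peaks in all lists or in 1 tissue alone, those with TCAAGGTCA, those bound in 1 genotype in both tissues, those without a peak within 20 kb, and Mrps18a and Mrps18b. The others were named after their values were seen. The members and lists were chosen with earlier results of these data known. The views by distance under 1 kb, by RefSeq start over all genes, by opposite starts, by repeats, by pairs of ranks, and the motifs AAGGTCA, NRF1, GABPA and YY1 were chosen after seeing the data. Overlap and motif search were tested on simulated data. Alternatives were other distances, scores, list lengths, centre distances and motifs. Python 3.11.15, pandas 2.3.3, scipy 1.17.1 and pysam 0.24.0 were used.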

Additional observations from a re-analysis of the deposited data

Results flagged for a closer look

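The number of members with TCAAGGTCA in the central 300 bp of a peak moved in opposite directions between genotypes in the 2 tissues. In muscle it was 3 in WT and 1 in 3SA, a difference of -2, and in liver 5 in WT and 10 in 3SA, a difference of 5. With 1 library behind each value, whether the tissues differ was not tested. In muscle the direction turned when the whole interval was searched, with 3 members in WT and 4 in 3SA. The Mrps23 site, which is central in WT muscle, lies 564 bp past the start, whereas the centre of the 1494 bp wide peak in 3SA muscle lies 279 bp past it, which leaves the site outside the central window there.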

How the results depend on the processing

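Of 80 alternative values for 20 results, 39 stayed within 1.5 times the reported value and 41 did not, and the cause was not tested. In the order WT muscle, 3SA muscle, WT liver and 3SA liver, a score of at least 50 left 13, 12, 15 and 23 bound members and a score of at least 100 left 6, 8, 11 and 14. The order of the muscle genotypes thus turned at a score of 50, by the narrow margin of 13 against 12, and not at 100. Most of these settings were counted for members alone, so no shares over all genes are set beside them here. In 3SA muscle 27 members were bound within 5 kb and 25 had a centre within 1 kb of a RefSeq start. Promoter peaks taken as 1000 bp or less were found for 18, 20, 19 and 27 members. Promoter-TSS peaks of score 100 or more were left for 3, 2, 2 and 1, and of 50 or more for 2 in 3SA muscle, 4 in WT liver and 2 in 3SA liver. With promoter-TSS peaks alone, the median best position was 4.66% in WT muscle, 38.7% in 3SA muscle and 65.0% in 3SA liver, and TCAAGGTCA was found at 1, 0, 1 and 0 members. In 3SA muscle TNAAGGTCA was found at 3 members and TCAAGGTCA anywhere in the interval at 4. AAGGTCA, added after seeing the data, was found at 7, 7, 14 and 19. Members with a peak shared between genotypes numbered 8 in muscle and 11 in liver at a score of 50 in both lists, 5 and 9 at 100, and in liver 12 with centres within 100 bp and, added after seeing the data, 12 with peaks within 1 kb. Between the 3SA tissues 9 were shared within 100 bp. With 3SA lists shortened to the WT length, peaks tied at the cut were kept in order of chromosome and start. In that setting 32 members were bound in each muscle list. Promoter-TSS peaks were found for 5 in 3SA muscle and 6 in 3SA liver, against 7 in each WT list. No paired analysis was possible because each group has 1 library. Unknown depth limits every count of members without a peak.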

Other observations

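The promoter stretches from RefSeq, 250 bases before to 50 after the start, were available for 69 of the 78 protein-coding Mrp genes. The letters of the NRF1 core GCATGCGC were in 8 of them (11.6%, 5.99 to 21.2) and in 3.94% of 17492 protein-coding genes, on either strand. The GABPA core CCGGAAGT was in 12 (17.4%, 10.2 to 28.0) and in 5.69%, and the YY1 core AAGATGGC in 12 (17.4%) and in 3.57%. TCAAGGTCA was in 0 of the 69 and in 0.377% of all, and AAGGTCA in 4 (5.80%) and in 4.73%. Of the 37 genes with a peak within 1 kb under their own name in any list, 3 had the YY1 letters (8.11%, 2.80 to 21.3). The GABPA letters were in 6 of the 37, the NRF1 letters in 2 and AAGGTCA in 3. Of the other 32 genes, 9 had the YY1 letters (28.1%, 15.6 to 45.4), 6 those of GABPA, 6 those of NRF1 and 1 AAGGTCA. The YY1 intervals overlap. Some of these 32 have a start under a peak named for another gene. These motifs were chosen after the peak lists had been seen, and a match is not a bound site.

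The median GC fraction of start-proximal member peaks was 0.6 in WT muscle, 0.586 in 3SA muscle, 0.608 in WT liver and 0.595 in 3SA liver. Over all genes it was 0.613, 0.596, 0.571 and 0.577, so the members stood below all genes in both muscle lists and above them in both liver lists.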
